A study of Homo sapiens with 32 samples.

Results

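The effect of 6 weeks of 1 µM perfluorooctane sulfonate (PFOS) on gene expression was measured in HGrC1 cells, an established human granulosa cell line. It compares 4 libraries of exposed cultures with 4 libraries of vehicle controls, chosen by their labels, 8 of the 32 libraries of the series. PFOS is a long-lived fluorinated surfactant. Per the labels, 4 separately thawed vials were each expanded and divided into a control with 0.05% DMSO and cultures dosed with PFOS (1, 0.1 or 0.01 µM), renewed whenever the cells were passaged, and sampled after 6 or 12 weeks. Library r of the control and library r of the exposed cells therefore come from the same vial. All groups grew in medium with 10% serum and 100 nM of a steroid, which the labels name estradiol and the study's methods name testosterone. The vials are separate thaws of 1 cell line, so the spread between libraries covers vials and culture, not donors. The question was which transcripts differ after prolonged exposure to this dose.

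Granulosa cells surround the oocyte, convert androgens to estradiol through aromatase and answer to the gonadotropins. Heat shock proteins are chaperones that fold new and damaged proteins, and their genes are switched on by the factor HSF1, which binds repeats of the pentamer NGAAN, the heat shock element. The mitochondrial genome encodes subunits of the respiratory chain and is transcribed from both of its strands. Cholesterol, the precursor of steroids, is taken up from the blood or made by a pathway that SREBP2 switches on.

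The labelled cell type was checked against its markers, with levels per transcript length in TPM, which scales each gene's count by its length and the library's total. Of 18 granulosa genes listed, 16 had values. The factors GATA4, GATA6 and WT1 were at 78.0, 49.8 and 35.5 TPM in the control. FOXL2, the factor that maintains granulosa identity, was at 0.725 TPM. Aromatase (CYP19A1) had 0 counts in all 8 libraries, and AMHR2, the receptor of anti-Müllerian hormone, had at most 2 counts in any of them. Aromatase and the AMH receptor, both defining for the cell type, were thus absent or near absent at the transcript level in control and exposed cells alike. The other listed genes with values were mixed in level. In the control, FST was at 21.6, AMH at 13.7, KITLG at 13.2, HSD17B1 at 6.41, INHBA at 5.08 and INHBB at 3.52 TPM. STAR was at 1.915, INHA at 1.4775, NR5A2 at 0.34 and NR5A1 at 0.1425 TPM.

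Total counts per library lay between 18123087 and 18314293 in the control and between 17944140 and 18107433 at 1 µM, and no exposed library exceeded a control library. The number of genes with a count was 14840 to 14915 in the control and 14919 to 14973 at 1 µM. The 100 most abundant genes took 22.2 to 22.8% of counts in the control and 22.8 to 23.6% at 1 µM. Each of these 3 measures separated the groups without overlap (p = 0.0286 by exact two-sided permutation, which is the smallest that 4 against 4 libraries can give), and their part in the results below was not tested.

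Heat shock genes led the list of transcripts that fell, so the motif of their promoters is shown first. RefSeq promoter windows (GRCh38.p14, 250 bases before to 50 after the transcript start) were found for 15 of the 18 heat shock genes tested. They were searched on both strands for the 2-unit element, GAANNTTC or TTCNNGAA, which reads the same on either strand. It was present in 11 of the 15, against 13.5% of all 35116 windows. The 3-unit element GAANNTTCNNGAA, each match of which also holds 2 matches of the short one, was present in 6 of the 15 and in 0.49% of all windows. In DNAJA1, among those 6, its match lay after the transcript start. Of the 5 heat shock genes that passed the test, 4 held the short element (80%, against 73.3% of the 15). The 3-unit element was in 1 of the 5, HSPA8 (20%, against 40% of the 15). The other genes with it, HSPD1, HSP90AB1, CHORDC1, HSP90AA1 and DNAJA1, did not pass. Whether either element goes with a fall in expression was not tested. The stretches below show the elements before the start of 4 genes that passed the test, 5′ to 3′ on the gene's strand, with the matching letters in capitals.
HSPA8, chr11:123062339-123062381, minus strand: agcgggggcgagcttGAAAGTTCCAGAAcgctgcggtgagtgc
HSPA8, chr11:123062164-123062206, minus strand: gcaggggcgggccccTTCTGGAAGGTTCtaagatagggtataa
DNAJB1, chr19:14518422-14518489, minus strand: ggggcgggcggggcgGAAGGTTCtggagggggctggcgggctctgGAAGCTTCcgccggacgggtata
HSPA1A, chr6:31815422-31815459, plus strand: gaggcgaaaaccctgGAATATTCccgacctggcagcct
HSPA1B, chr6:31827618-31827655, plus strand: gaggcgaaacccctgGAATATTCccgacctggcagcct

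HSPA8 held both a distal 3-unit match, 230 to 218 bases before the start, and a proximal one, 55 to 43 bases before it. HSPA1A and HSPA1B carried the same 8 letters about 100 bases before their starts (106 to 99 and 105 to 98 bases). The window of BAG3, the fifth heat shock gene that passed, held neither form. A match of letters is a description of the window and does not show that a factor bound there.

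Few genes passed the test, and most changes were small. Of 12836 genes tested, 36 (0.28%) had an adjusted p at or under 0.05 (edgeR quasi-likelihood test, Benjamini-Hochberg adjustment over all genes tested). Expression of 17 rose (0.132%) and of 19 fell (0.148%). Only 5 genes (0.039%) also changed at least 2-fold, the study's criterion for a differentially expressed gene, and all 5 rose. For 4 of these 5, each control library held at most 1 count. The other 31 changed by −0.38 to −0.16 or by 0.18 to 0.73 on the log2 scale. An unadjusted p under 0.05 was found for 1757 genes (13.7%), 790 higher (6.15%) and 967 lower (7.53%). All 36 differed in the same direction in every vial, and their CPM, the count scaled to library size, did not overlap between groups, which held for 413 genes upward (3.22%) and 457 downward (3.56%) of those tested. With the vial as a block in the fit, 66 genes passed (0.514%), 35 higher and 31 lower, and these included all 36. With all 32 libraries in 1 fit, 5 genes passed, all among the 36, with HSPA1B, DNAJB1, ENC1 and PITPNM1 in their number. Leaving out vial 1 gave 15 higher and 9 lower, vial 2 gave 75 and 103, vial 3 gave 8 and 4, and vial 4 gave 10 and 6. DESeq2 on the 8 libraries called 39 higher and 53 lower.

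**Figure D1:**
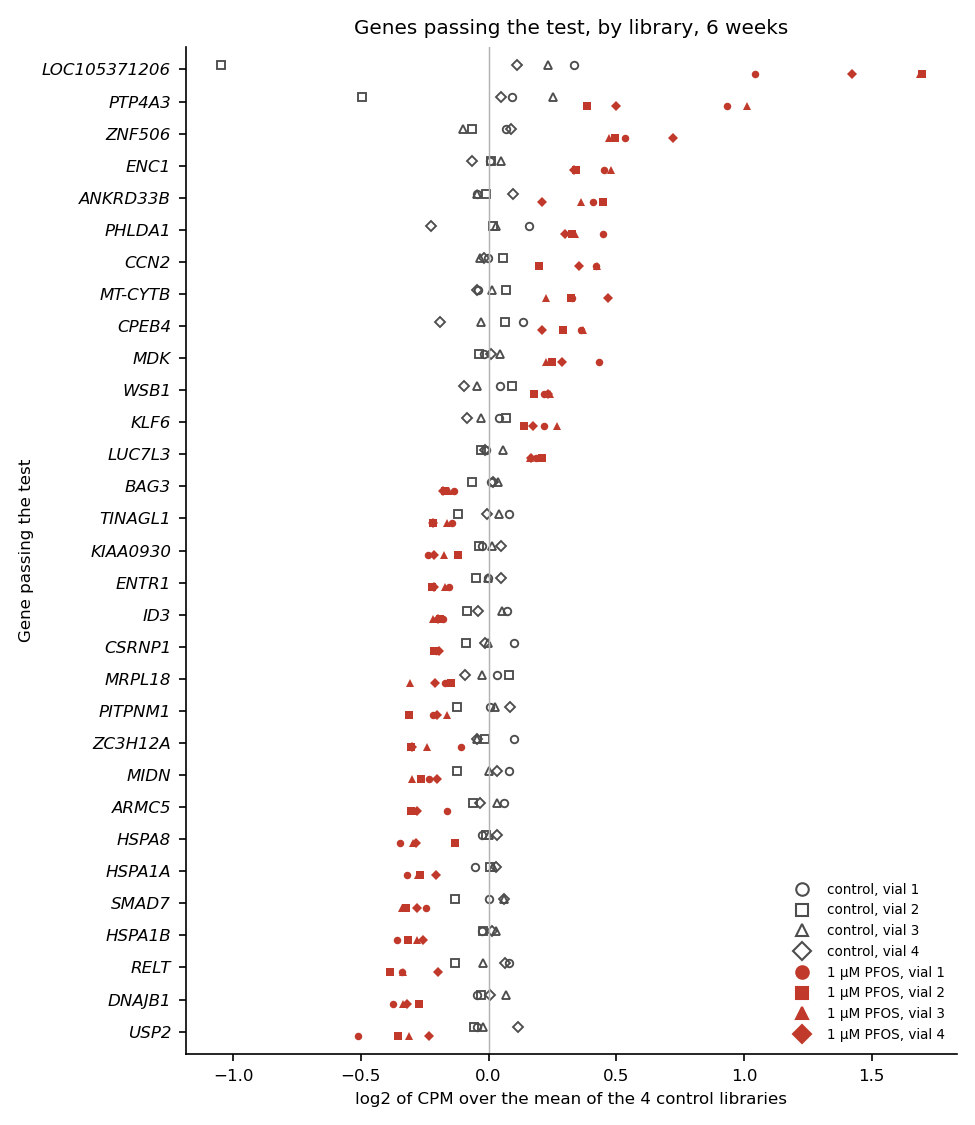
The horizontal axis gives the log2 of each library's CPM over the mean of the 4 control libraries, and each line is 1 of 31 genes that passed the test, the 4 liver transcripts not among them. Open symbols are controls, filled symbols are 1 µM PFOS and the shape marks the vial. In every gene the filled symbols lie on 1 side of the open ones, most of them within 0.5 of 0.

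The chaperone genes that fell were HSPA1A and HSPA1B, the stress-inducible HSP70 pair, HSPA8, the constitutive HSC70, DNAJB1, the HSP40 partner that delivers clients to them, and BAG3, their nucleotide exchange factor. HSPA8 was the most abundant of the 5, with 1642, 1664, 1676 and 1713 CPM in the control and 1318, 1527, 1365 and 1375 CPM at 1 µM (vials 1 to 4). The groups did not overlap, and vial 2 showed the smallest difference. In bulk libraries, fewer cells with a transcript and less of it per cell cannot be told apart. HSPA8 fell by 0.26 ± 0.04 (SE) on the log2 scale (adjusted p = 0.000347, edgeR), or 16.6%.

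DNAJB1 (chr19:14514769-14560391) was at 146, 148, 158 and 151 CPM in the control and 116, 125, 119 and 121 CPM at 1 µM. The change was similar in all vials and amounted to −20.2% (log2 fold change −0.33 ± 0.04, adjusted p = 4.57e-06, edgeR). DNAJB1 and HSPA1B were 2 of only 3 genes called under every alternative of the test, with ENC1.

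HSPA1B (chr6:31827738-31830254) was at 299, 301, 311 and 308 CPM in the control and at 238, 245, 251 and 255 CPM at 1 µM. It fell by 0.30 ± 0.03 on the log2 scale (adjusted p = 4.57e-06, edgeR). HSPA1A (chr6:31815543-31817942) was at 348, 363, 366 and 369 CPM in the control and at 290, 300, 298 and 314 CPM at 1 µM, a change of −0.27 ± 0.03 (adjusted p = 9.64e-06). The call for HSPA1A was lost only in the fit of all 32 libraries. These genes are near-identical copies between which an aligner may divide reads. Their sum was 666 ± 14.1 CPM (SD, n = 4) in the control and 548 ± 17.1 CPM at 1 µM, lower in 4 of 4 vials by 17.8% on average. Each copy alone already separated the groups, so the sum had to do so and is given as a description.

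BAG3 changed least of the 5, from 111 ± 3.45 CPM to 99.7 ± 1.36 CPM (log2 fold change −0.16 ± 0.03, adjusted p = 0.0377, edgeR), and leaving out vial 1, 3 or 4 ended its call. For HSPA8, leaving out vial 3 or fitting all 32 libraries ended the call. Of the 18 chaperone genes tested, 5 fell and 0 rose, where 0.148% of all genes tested fell and 0.132% rose. An unadjusted p under 0.05 was found for 12, all lower, against 7.53% lower among all genes tested. The median log2 fold change was −0.13, against −0.00 over all genes tested. Among those that did not pass, HSPH1 (HSP110) was at −0.21 ± 0.05, CHORDC1, an HSP90 cochaperone, at −0.19 ± 0.06 and FKBP4 at −0.15 ± 0.04. HSP90AB1, the constitutive HSP90, was at −0.12 ± 0.04 and HSP90AA1 at −0.07 ± 0.04. The mitochondrial chaperone HSPD1 was at −0.06 ± 0.04, its partner HSPE1 at 0.04 ± 0.05 and HSF1 itself at −0.10 ± 0.04. With DESeq2, HSPH1 and FKBP4 were also called, so that 7 members fell.

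**Figure D2:**
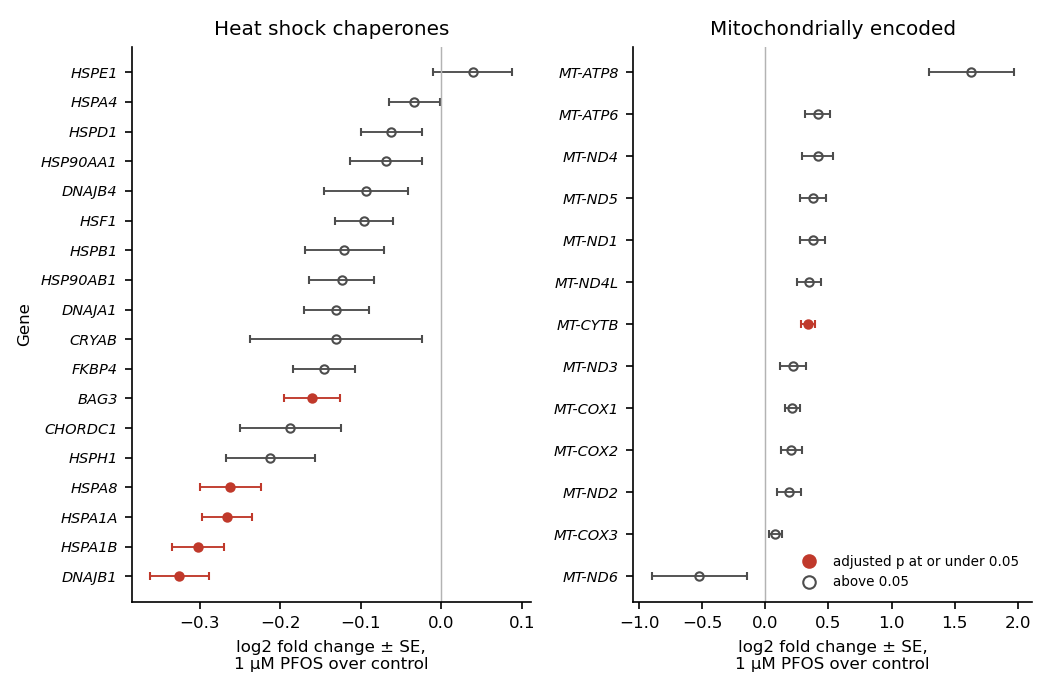
Each point is the log2 fold change of 1 µM PFOS over control at 6 weeks with its standard error, for 18 heat shock chaperone genes (left) and 13 mitochondrially encoded transcripts (right, on another scale). Filled points have an adjusted p at or under 0.05. Of the chaperone genes 17 lie below 0, and of the mitochondrial transcripts 12 lie above 0, with MT-ND6 below.

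Mitochondrially encoded transcripts were more abundant at 1 µM, although only 1 passed the test. MT-CYTB (MT:14747-15887), cytochrome b of complex III, had 4987, 5374, 5183 and 4977 CPM in the control and 6436, 6420, 5998 and 7092 CPM at 1 µM. The groups were separate in every vial, and it rose by 0.34 ± 0.06 on the log2 scale (adjusted p = 0.00439, edgeR), or 26.4%. Its call was lost only when the fit held all 32 libraries. Summed over the 13 transcripts, the level was 49468 ± 1304 CPM without PFOS and 60100 ± 5631 CPM with it, higher in 4 of 4 vials (SD, n = 4, exact permutation test, p = 0.0286). Most of the 13 alone already separated the groups, so the sum and its p are given as a description. The 13 transcripts made up 4.80 to 5.04% of counts in the control and 5.56 to 6.77% at 1 µM. Vial 4 at 1 µM was highest and the other exposed libraries, at 5.56 to 5.94%, were still above every control.

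Of the 13, 1 rose and 0 fell, where 0.132% of all genes tested rose and 0.148% fell. An unadjusted p under 0.05 was found for 9, all higher, against 6.15% higher among all genes tested. The median log2 fold change was 0.34. MT-ATP6 was at 0.42 ± 0.10, MT-ND4 at 0.41 ± 0.13, MT-ND1 and MT-ND5 both at 0.38 ± 0.10 and MT-COX1 at 0.21 ± 0.06. MT-COX1, a core subunit of complex IV, passed with the vial as a block (adjusted p = 0.0434, edgeR). MT-ATP8 had the highest estimate, 1.63 ± 0.33, from 25.8 to 50.6 CPM in the control to 69.5 to 165 CPM at 1 µM (adjusted p = 0.0752). It overlaps MT-ATP6, so reads may be divided between them. Their sum went from 2737 ± 133 CPM to 3707 ± 498 CPM, higher in 4 of 4 vials. Both alone already separated the groups, so their sum had to do so and is given as a description. DESeq2 on the 8 libraries called 10 of the 13 higher. In either direction it called 92 genes among the 5061 that received an adjusted p. MT-ND6, the subunit encoded on the opposite strand to the rest, was at −0.52 ± 0.38.

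The nuclear genes for respiratory chain subunits did not show a change of this size. Of 57 tested, 0 passed, 4 had an unadjusted p under 0.05, all higher, and the median log2 fold change was 0.02. Over all genes tested, 0.28% passed and 6.15% were higher at an unadjusted p under 0.05. Cytosolic ribosomal protein genes had a median of 0.05 over 75 genes, with 17 unadjusted p under 0.05, all higher, and 0 passing. Their share at an unadjusted p under 0.05 was thus above that of all genes, with small changes.

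CCN2, KLF6, ENC1 and PHLDA1 were among the other genes that rose. CCN2 (chr6:131948176-131951372), the matricellular connective tissue growth factor, had 514, 535, 503 and 508 CPM in the control and 689, 591, 691 and 658 CPM at 1 µM. All exposed libraries were above all controls, with vial 2 nearest, and it rose by 0.35 ± 0.05 on the log2 scale (adjusted p = 0.00173, edgeR). Without vial 1 or vial 4 its call was lost. CCN1, its paralog and the most abundant gene of the immediate early list, was at 0.15 ± 0.03 (adjusted p = 0.0645, and 0.0496 with the vial as a block).

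KLF6, a zinc finger transcription factor, had 321, 327, 306 and 294 CPM in the control and 362, 344, 375 and 352 CPM at 1 µM. It rose by 0.20 ± 0.03 (adjusted p = 0.0037, edgeR), a change of 14.9%. In the list of immediate early genes, 2 of 33 rose, KLF6 and CCN2, 0 fell and the median was 0.01. Among all genes tested 0.132% rose and 0.148% fell. The call for KLF6 was lost without vial 3 or vial 4.

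ENC1 (chr5:74627409-74640728), an actin-binding kelch protein, had the lowest p of the genes that rose apart from albumin. It was at 117, 117, 120 and 111 CPM in the control and at 159, 148, 162 and 147 CPM at 1 µM. The gap between the groups was wider than the range within either, and it rose by 0.40 ± 0.04 on the log2 scale (adjusted p = 4.57e-06, edgeR), or 32.4%. PHLDA1, a pleckstrin homology-like domain protein, was at 48.0, 43.5, 43.9 and 36.8 CPM in the control and 58.7, 54.1, 54.5 and 53 CPM at 1 µM. It rose by 0.35 ± 0.06 on the log2 scale (adjusted p = 0.00295), and its call was lost without vial 3.

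The remaining genes that rose have various roles. MDK, the heparin-binding growth factor midkine, rose by 23.1%, CPEB4, a regulator of mRNA polyadenylation, by 23.9% and ANKRD33B, an ankyrin repeat protein, by 28.4%. WSB1, a substrate receptor of a ubiquitin ligase, rose by 16.3%, and LUC7L3, a splicing factor, by 13.3%. ZNF506, a zinc finger gene, and PTP4A3, the phosphatase PRL-3, were expressed at 3.03 ± 0.20 and 2.47 ± 0.51 CPM in the control and rose by 47.2% and 66.1%. LOC105371206 rose from 0.565 ± 0.20 CPM to 1.58 ± 0.32 CPM (log2 fold change 1.48 ± 0.30, adjusted p = 0.023, edgeR), and it lost its call without vial 2, 3 or 4. ZNF506 lost its call when any of the 4 vials was left out, and each of the other 6 in this group lost it without at least 1 of vials 1, 3 and 4.

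In TGF-beta and BMP signalling, SMAD7 and ID3 fell. SMAD7, the inhibitory SMAD that blocks the receptors, was at 64.3, 58.6, 67.0 and 67.0 CPM in the control and at 54.2, 51.3, 50.7 and 52.8 CPM at 1 µM. It fell by 0.30 ± 0.06 on the log2 scale (adjusted p = 0.023, edgeR), in 4 of 4 vials. ID3, an inhibitor of DNA binding that BMP signals induce, was at 240, 215, 236 and 221 CPM in the control and within 196 to 202 CPM at 1 µM. It fell by 0.20 ± 0.04 (adjusted p = 0.0241). Of 40 genes tested in the list, 1 rose (CCN2), 2 fell, and the median was −0.02. Among all genes tested 0.132% rose and 0.148% fell. DESeq2 on the 8 libraries called 1 higher and 5 lower, with FSTL3, ID1 and ID2 added. In either direction it called 92 genes among the 5061 that received an adjusted p. SMAD7 lost its call without vial 3 or 4, and ID3 without vial 1, 3 or 4.

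A further 11 genes fell that have various roles. USP2, a deubiquitinating enzyme, fell by 21.5%, RELT, a member of the TNF receptor family, by 19.5% and ARMC5, an adaptor of a ubiquitin ligase, by 16.4%. MIDN, which carries nuclear proteins to the proteasome, fell by 15.8% and ZC3H12A, the ribonuclease Regnase-1 that degrades inflammatory mRNAs, by 15.1%. PITPNM1, a lipid transfer protein, fell by 14.3%, MRPL18 of the mitochondrial ribosome by 13.4%, and CSRNP1, a nuclear protein, by 13.3%. ENTR1, an endosomal trafficking protein, KIAA0930 and TINAGL1, a matrix protein, fell by 12.0 to 12.3%. Each of these 11 lost its call without at least 1 of vials 1, 3 and 4.

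Transcripts of 4 liver plasma proteins went from absent or near absent to present, and they account for 4 of the 5 changes of 2-fold or more. Albumin (ALB) had 0, 0, 0 and 1 counts in the control libraries and 34, 41, 41 and 35 counts at 1 µM. AFP, the fetal counterpart of albumin, had 0 counts in every control and 17, 26, 14 and 29 at 1 µM, and AHSG (fetuin-A) 0 and then 25, 15, 31 and 20. APOB, the protein of LDL particles, had 0 counts in every control and 9, 18, 22 and 13 at 1 µM. Against a floor of 3 counts per library, the mean count at 1 µM was at least 12.6-fold higher for ALB and 7.58-fold for AHSG. It was at least 7.17-fold higher for AFP and 5.17-fold for APOB. Single libraries could lie nearer the floor, as APOB did with 9 counts in 1 of them. The adjusted p of the 4 were 7.86e-09 to 4.46e-05 (edgeR). For AFP, AHSG and APOB these rest on a control group without counts, and for ALB on a control group with 1 count. All 4 passed the low-count filter through exposed libraries only. Their adjusted p are therefore given as a description. The levels of the 4 at 1 µM are low, at a mean of 0.861 to 2.10 CPM.

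The calls of these 4 depend on how they are modelled. They were lost when all 32 libraries shared 1 fit, and DESeq2 gave them no adjusted p. Among 24 hepatocyte genes listed, 17 had at most 1 count in each control, and their sum, chosen for that and given as a description, was 0 to 1 counts in the control and 99 to 132 at 1 µM. The same sum was 1 to 2 at 0.01 µM and 98 to 154 at 0.1 µM after 6 weeks. After 12 weeks it was 93 to 1064 in the unexposed control and 108 to 196 at 1 µM. In these 17, FGB and GC stayed at 0 in all 8 libraries, TTR and APOC3 had at most 1 count, and APOH, untested for its low counts, had 0 in every control and 3 to 5 at 1 µM. The controls also held other genes of the list: VTN had 971 to 1058 counts in the control and 901 to 1098 at 1 µM. SERPINA1 had 173 to 226 and 203 to 257, TF 78 to 99 and 107 to 142, and APOA1 41 to 85 and 72 to 88. These were at 0.30 ± 0.10, 0.40 ± 0.12 and 0.45 ± 0.18 on the log2 scale and did not pass (adjusted p from 0.135 to 0.288, edgeR).

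**Figure D3:**
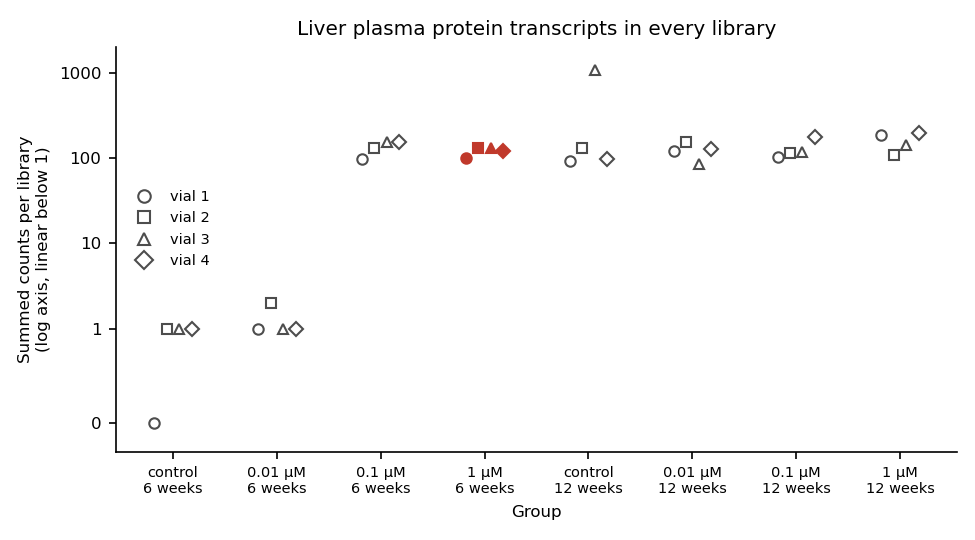
Each point is 1 library, the vertical axis is the summed count of the 17 liver transcripts (logarithmic, linear below 1) and groups run by week and dose, with 1 µM at 6 weeks filled. The 6-week control and 0.01 µM libraries hold 0 to 2 counts. All other groups, the 12-week control included, hold 85 or more.

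Lipid synthesis genes gave no call. Over all genes tested 0.28% were called, 6.15% had an unadjusted p under 0.05 and a higher level, and 7.53% a lower one. In the list of cholesterol and fatty acid synthesis, 0 of 34 passed, but 15 had an unadjusted p under 0.05 and a higher level, 1 had a lower one, and the median log2 fold change was 0.13. MSMO1, a sterol oxidase, was at 0.24 ± 0.07 (adjusted p = 0.134, edgeR) and STARD4, a cholesterol carrier, at 0.14 ± 0.04 (adjusted p = 0.147). DESeq2 on the 8 libraries called 6 members higher, with HMGCS1, FDPS, MSMO1, SCD and FADS1 among them. In either direction it called 92 genes among the 5061 that received an adjusted p. Among 26 PPAR targets and fatty acid oxidation genes, 0 passed and the median was −0.00. UCP2, a mitochondrial carrier, was at 0.19 ± 0.04 (adjusted p = 0.0594, and 0.0187 with the vial as a block).

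No gene in the lists of the granulosa programme passed. Over all genes tested 0.28% did, so lists this short could hold 0 by that share alone. Of 13 granulosa identity genes tested 0 passed, and the median log2 fold change was 0.02. Of 23 steroidogenesis genes 0 passed, 2 had an unadjusted p under 0.05 and a higher level, and 1 a lower one. Among all genes tested these shares were 6.15% and 7.53%. STAR, which moves cholesterol into the mitochondrion, was at 2.96, 3.17, 2.66 and 2.61 CPM in the control and 4.49, 3.11, 4.31 and 3.76 CPM at 1 µM (0.46 ± 0.14, adjusted p = 0.135, edgeR). The groups overlapped in vial 2 alone. HSD17B1, which reduces estrone to estradiol, was at −0.14 ± 0.12, and NR0B1 (DAX1), a repressor of steroidogenic genes, at −0.65 ± 0.20 (adjusted p = 0.151). In the estrogen and androgen response list, 0 of 12 passed and 0 had an unadjusted p under 0.05.

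Stress and receptor pathways gave no calls outside the chaperones, where 0.28% of all genes tested were called. At an unadjusted p under 0.05, 6.15% of all genes were higher and 7.53% lower. In the NRF2 antioxidant list 0 of 29 passed, 9 had an unadjusted p under 0.05 and a lower level, 1 a higher one, and the median was −0.06. GCLM and GCLC, the subunits of the enzyme that starts glutathione synthesis, were at −0.22 ± 0.08 and −0.14 ± 0.05. For the xenobiotic receptors, 0 of 16 passed. CYP1B1 and TIPARP, targets of the aryl hydrocarbon receptor, were at −0.27 ± 0.07 (adjusted p = 0.101) and −0.28 ± 0.07 (adjusted p = 0.129), with every exposed CYP1B1 library below every control. In the integrated stress and unfolded protein response 0 of 29 passed, and ERN1 (IRE1) and DDIT3 (CHOP) were both at 0.29 ± 0.07 (adjusted p of 0.066 and 0.0819, both 0.0417 with the vial as a block). Metallothioneins showed 0 of 9 with an unadjusted p under 0.05.

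Growth, matrix and inflammatory genes likewise stayed mostly under the threshold. The all-gene shares were again 0.28% passing, and 6.15% higher and 7.53% lower at an unadjusted p under 0.05. In the list of cell cycle and DNA replication genes 0 of 45 passed and the median was −0.02, and CCND3, a G1 cyclin, was at −0.19 ± 0.05 (adjusted p = 0.0459 with the block). In apoptosis, 0 of 32 passed, with 6 unadjusted p under 0.05, all higher. In glycolysis and the hypoxia response 0 of 36 passed, and the glucose transporter SLC2A1 and the kinase PFKFB3 were at −0.19 ± 0.04 and −0.26 ± 0.07 (adjusted p of 0.028 and 0.0459 with the block). Of 38 collagen and matrix genes 0 passed and 8 had an unadjusted p under 0.05, all lower, with COL4A1 at −0.13 ± 0.04. IL6 was at 93.8, 97.0, 84.7 and 80.0 CPM in the control and 115, 120, 119 and 112 CPM at 1 µM, without overlap (0.39 ± 0.08, adjusted p = 0.0752, and 0.0406 with the block). In its list of chemokines, interleukins and NF-kappaB genes 0 of 31 passed and the median was 0.09. In the lists of interferon-stimulated genes, proteases and their inhibitors, growth factors and receptors, cytoskeleton and adhesion, and replication-dependent histones, 0 genes passed. The WNT, YAP and Notch list held 1 gene that rose, CCN2. In the lists of the last 2 paragraphs, DESeq2 on the 8 libraries called IL6, NFKBIA and IFITM2 higher and CYP1B1, TIPARP, SRXN1, TALDO1, SLC2A1, COL4A1, TAGLN and MYL9 lower.

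Among genes that did not pass, the estimates with the same direction in all 4 vials were largest for genes of low expression. Upward these included MT-ATP8, PTGDS (a prostaglandin D synthase, 0.93 ± 0.24, adjusted p = 0.0957, and 0.0406 with the block), FAM83A, ZSCAN23, ZNF19, KRT86, ZNF222, ZNF501 and ZNF502. Downward they were RGCC (−1.03 ± 0.38), TBC1D3, KLHL30, NR0B1, OR2L2, LHX2, ACTA2 (smooth muscle actin, −0.51 ± 0.16), ZNF487, ARC and TMEFF1. Apart from MT-ATP8 and ACTA2 all had a mean of at most 6.19 CPM in the control. ITLN1, an intestinal lectin, was at 0.167 to 0.383 CPM in the control and 0.83 to 1.52 CPM at 1 µM (1.88 ± 0.43, adjusted p = 0.066), and GOLGA8R, one of many similar copies, was at 2.44 ± 0.88 (adjusted p = 0.247).

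Markers of other cell types were read beside these results. Of 1 oocyte, 4 theca and luteal, 4 blood, 5 endothelial, 6 epithelial, 9 stromal and 4 placental marker genes tested, 0 passed. Over all genes tested 0.28% passed, so 0 among so few says little about other cell types. Many other listed markers, such as PTPRC of the blood list, had too few counts to be tested.

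The same controls served the lower doses, so values at other doses are set side by side without a test of likeness. HSPA1B was at 0.04 ± 0.03 at 0.01 µM, −0.16 ± 0.03 at 0.1 µM and −0.30 ± 0.03 at 1 µM (log2 fold change over the 6-week control). DNAJB1 was at −0.02, −0.24 and −0.33, and HSPA8 at −0.10, −0.27 and −0.26. ENC1 was at 0.14, 0.23 and 0.40, CCN2 at 0.16, 0.26 and 0.35, and MT-CYTB at 0.01, 0.33 and 0.34. Among all genes, 0 passed at 0.01 µM (1232 had an unadjusted p under 0.05, 9.6%) and 544 at 0.1 µM (4.24%), compared with the 36 at 1 µM.

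Compared directly with 0.1 µM, 11 genes were higher at 1 µM (0.0857%) and 0 lower (388 had an unadjusted p under 0.05 and a lower level, 3.02%, and DESeq2 on 8 libraries called 7). Of the 36 genes, ANKRD33B was among the 11. It was at −0.00 ± 0.06 at 0.1 µM and 0.36 ± 0.06 at 1 µM, a difference of 0.36 ± 0.06 (adjusted p = 0.0084, edgeR). NFKBIA, the inhibitor of NF-kappaB, was at −0.14 ± 0.05 at 0.1 µM and 0.17 ± 0.05 at 1 µM, neither past the threshold, with a difference of 0.31 ± 0.05 (adjusted p = 0.00496). For the chaperones the direct difference was −0.14 ± 0.03 for HSPA1B (adjusted p = 0.122), −0.13 for HSPA1A (adjusted p = 0.141) and 0.01 for HSPA8 (adjusted p = 0.98).

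The effect after 12 weeks, against controls of that week, differed from that after 6 weeks for 16 of 12988 genes (0.123%), tested as an interaction over all 32 libraries. KLF6 and PHLDA1 were the genes among the 36. KLF6 was at 0.20 ± 0.03 after 6 weeks and −0.14 ± 0.06 after 12 weeks, a difference of −0.34 ± 0.06 (adjusted p = 0.0249, edgeR). PHLDA1 was at 0.35 ± 0.06 and −0.42 ± 0.13, a difference of −0.77 ± 0.15 (adjusted p = 0.0266). After 12 weeks DNAJB1 was at −0.19, HSPA1B at −0.22, HSPA8 at −0.21 and BAG3 at 0.03, and none of the 4 passed (adjusted p from 0.117 to 0.88). MT-CYTB was at 0.01 and ENC1 at 0.19. CSRNP1 was at −0.52 and was among the 28 genes (0.22%) that passed at that week (adjusted p = 0.00223). For the 4 liver transcripts the differences were −9.05 to −7.49 (adjusted p from 0.0747 to 0.139), with the 12-week controls holding 9 to 270 counts of each.

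**Figure D4:**
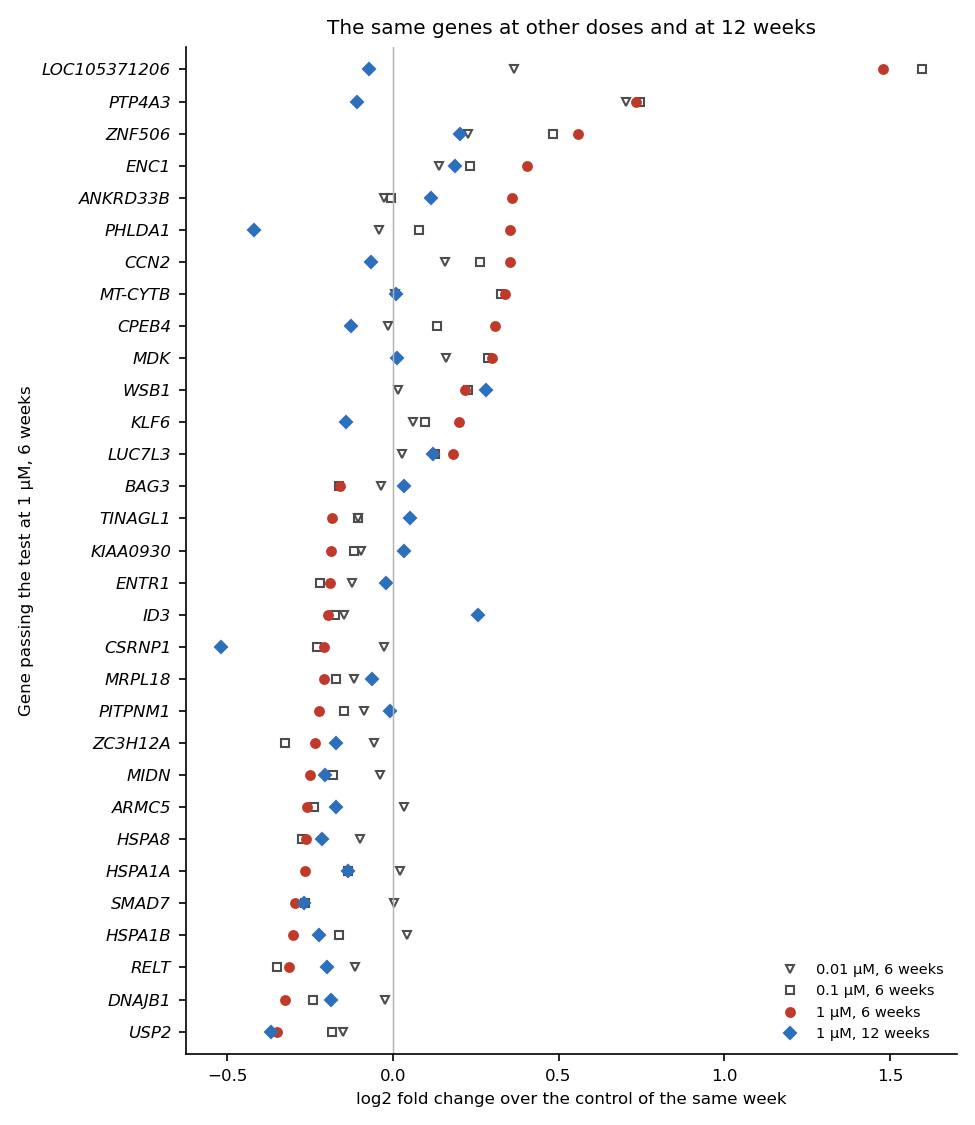
For 31 genes that passed at 1 µM after 6 weeks, the liver transcripts not among them, the horizontal axis gives the log2 fold change over the control of the same week at 0.01, 0.1 and 1 µM after 6 weeks and at 1 µM after 12 weeks. The 3 doses at 6 weeks share their control libraries. At 1 µM, PHLDA1, KLF6, CPEB4, CCN2, PTP4A3 and LOC105371206 lie above 0 after 6 weeks and below it after 12, and ID3, BAG3, TINAGL1 and KIAA0930 the other way round. Of these, KLF6 and PHLDA1 passed the test of the difference between the weeks.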

How the data were processed

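Stranded poly(A) RNA libraries of HGrC1 cells were sequenced on a DNBSEQ platform, and the submitters' processing notes name HISAT2 2.0.4, Bowtie2 2.2.5, RSEM 1.2.8 and GRCh38.p14. The authors deposited expected counts per gene estimated by RSEM, without normalization, and TPM, which the authors scaled for transcript length and depth. The deposited FPKM and DESeq2-normalized values were not used. Of 47137 gene entries, 18583 had values; the others, FSHR and LHCGR among them, were not analysed here. Expected counts were rounded to whole numbers.

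Genes were tested with edgeR 4.0.16 (two-sided robust quasi-likelihood test, TMM scaling, genes of low count removed by filterByExpr) in R 4.3.3 on the 16 libraries of 6 weeks, which share 1 estimate of spread, with Benjamini-Hochberg adjustment. Spread was estimated between vials. Differences between weeks were fitted over all 32 libraries. DESeq2 1.42.0 (Wald test) was an alternative, in which only 5061 genes (8 libraries) or 4213 genes (16 libraries) received an adjusted p. CPM used TMM library sizes. The sum of the 13 mitochondrial transcripts was tested by exact two-sided permutation of log2(CPM + 1). The fit was also run on simulated counts without a vial effect. Changes planted there were larger than most of those called here, so that run does not cover changes of the size reported.

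The genes named were every gene that passed, the 10 largest rises and falls among genes not passing with an unadjusted p under 0.05, at least 1 CPM on average and the same direction in all 4 vials, the called and the 3 lowest-p members of each list, and MT-ATP8, ITLN1, PTGDS and GOLGA8R. Other chaperone and mitochondrial members and CSRNP1 at 12 weeks were added after their values were seen. A few genes that the rule names are not reported here. The comparison, the members and the gene lists were chosen with earlier results of these data known.

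The labels state that each vial's flask was divided into the 4 groups, so replicate numbers pair the samples. The correlation used to check the pairing had a mean of 0.0799 (−0.00434 to 0.201) for same-numbered control and 1 µM libraries, against −0.0267 for other numbers. It is not a correlation of expression levels, which in log2 CPM was at least 0.996 between libraries of the same group. Among 12 pairs of replicates within the 6-week control and exposed groups, 0 were identical (chi-square per degree of freedom 2.72 to 6.22). Libraries held 17944140 to 18314293 counts, and a count of 0 allows up to 3 counts. Floors cover counting error only. Gene coordinates and promoters are from RefSeq (GRCh38.p14), and 5 of the 36 genes are listed on alternate contigs in the files but given here at their primary position.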

Additional observations from a re-analysis of the deposited data

Results flagged for a closer look

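Single libraries stood apart from their group in the following values. The share of counts from cytosolic ribosomal protein genes was 4.44% in vial 3 at 1 µM, with the other 3 libraries between 4.31 and 4.33%. ARMC5 was at 25.3 CPM in vial 1 at 1 µM, and the others were at 23 to 23.3 CPM. In groups of 4, chance sets about 1 in 20 apart in this way, and 80 groups of values were checked. The sum of 17 liver transcripts, taken from libraries outside the comparison, was 93 counts in the lowest unexposed 12-week control, against at most 1 in the 6-week controls, and 1064 counts in the 12-week control of vial 3.

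The effect of 1 µM PFOS differed between 6 and 12 weeks for 4 of the genes named, by a test of the difference over 32 libraries (edgeR). The difference of the log2 fold change, 12 minus 6 weeks, was −0.34 for KLF6 (adjusted p = 0.0249), −0.57 for DDIT3 (adjusted p = 0.0266), −0.77 for PHLDA1 (adjusted p = 0.0266) and −0.68 for TIPARP (adjusted p = 0.0309). TIPARP was at −0.28 after 6 weeks and −0.97 after 12 weeks, and DDIT3 at 0.29 and −0.28.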

How the results depend on the processing

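The 36 calls depended most on which libraries were fitted, and the cause was not tested. Of the 36, RLE size factors kept 35, no filter on low counts 36, the 8 libraries alone 24 and all 32 libraries 5, and DESeq2 called 24 on 8 and 20 on 16 libraries, with the rest lacking an adjusted p. No named gene reversed under these alternatives, and among the values of named genes under each, 2075 kept direction and side of the threshold, 215 lost it and 87 passed it. With vials left out in turn, 10 genes were called in all 4 fits, and vials 1 to 4 left out kept 18, 33, 12 and 14. Fits without a single library, and the liver sums at 12 weeks, were added after seeing the data. Genes higher numbered 17, and 27 with no filter on low counts, 1 with all 32 libraries, 35 with the replicate block, 39 and 48 with DESeq2 on 8 and 16 libraries, and 8 to 75 with 1 vial or library left out. Genes lower numbered 19, and 4 with all 32 libraries, 31 with the block, 53 and 76 with DESeq2, and 4 to 103 with 1 vial or library left out. Genes changed 2-fold numbered 5, and 8 with no filter, 0 with a minimum of 10 counts, 0 with 32 libraries, 1 with DESeq2 on either set and 4 to 11 with 1 vial left out. For 1 against 0.1 µM, genes higher numbered 11, and 2 with all 32 libraries, 19 with the block, 25 and 20 with DESeq2 and 1 to 11 with 1 vial left out. Genes lower numbered 0, and 1 with RLE, 2 with no filter, 1 with the count minimum, 1 with the 8 libraries, 4 with the block, 7 and 5 with DESeq2 and 0 to 1 with 1 vial left out, and 2-fold changes 0, 1 with the count minimum, 1 with the block, 3 and 2 with DESeq2 and 0 to 1 with 1 vial left out. For the difference between weeks, genes higher numbered 7, and 12 in the 16 libraries of control and 1 µM and 0 to 13 with 1 vial left out, genes lower 9, and 16 with the block and 1 to 9 with 1 vial left out, and 2-fold changes 0, and 0 to 4 with 1 vial left out.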
